A study of Homo sapiens with 4 samples.

Results

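The small proline-rich protein (SPRR) genes encode precursors of the cornified envelope, the protein shell that replaces the plasma membrane of a keratinocyte at the end of its differentiation. The 9 genes described here, SPRR1A, SPRR1B, SPRR2A, SPRR2B, SPRR2D, SPRR2E, SPRR2F, SPRR2G and SPRR3, were chosen by gene symbol from the 27356 genes with a row in the deposited tables. All 9 had a row. After treatment of HaCaT keratinocytes with M5, a mix of cytokines, 7 of the 9 genes were higher in both M5 libraries than in both control libraries, as were 23.6% of all genes with a row. SPRR2A, absent from the control counts, reached FPKM values within the range of those of SPRR1B. SPRR2B and SPRR3 stayed at or near 0.

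SPRR proteins are short, rich in proline, glutamine and lysine, and are built largely of repeated short peptides. Transglutaminases join their glutamine and lysine side chains to other envelope proteins such as loricrin and involucrin, so that SPRR proteins act as bridges in the envelope. The genes lie side by side in the epidermal differentiation complex on chromosome band 1q21, next to the genes of other envelope precursors and of S100 proteins. In skin they are known as genes of stressed, wounded and psoriatic epidermis, whereas healthy interfollicular epidermis makes less of most of them.

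HaCaT is an immortalised human skin keratinocyte line, and a single line is the only cell source here. Control cells received phosphate-buffered saline (PBS). M5 cells received oncostatin M, TNF-α, IL-1α, IL-17 and IL-22 at 10 μg/L each, and both groups were collected at 72 h after treatment at a plating density of 50%. Each group had 2 libraries of polyadenylated RNA, grouped here by title. A treatment tag attached to the M5 libraries reads 25 μM DAC, an abbreviation left as it stands, whereas titles and protocols give M5. The labels do not say whether replicates came from separate cultures. The p-values cover only how these 4 libraries vary, and that variation may be technical.

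Total counts ranged from 15858644 to 19749612 per library. Of 10809 genes whose mean FPKM (fragments scaled to gene length and library total) reached 1, 55.9% were called by edgeR's quasi-likelihood test at an adjusted p under 0.05, 28.8% higher and 27.1% lower in M5. The share of calls that were higher was 51.5% with TMM scaling and 33.0% with library totals, while TPM scaling gave 2027 higher and 4739 lower. Over all tested genes the median log2 fold change moved from -0.01 with TMM to -0.16 and -0.20. All 11 keratinocyte markers were tested and detected, and KRT14, the highest of them in the mean over all 4 libraries, was at 1320 to 1530 FPKM. Markers of other cell types were low: summed over each list, FPKM ranged from 1.41 to 2.40 for melanocytes, 0.402 to 0.682 for fibroblasts and 0.281 to 0.623 for endothelium. The leukocyte list summed to 1.55 and 2.34 in PBS and to 4.66 and 5.12 in M5, nearly all of it CD14, a monocyte receptor, while PTPRC, the defining leukocyte gene, has no row. Their part in the SPRR results was not tested.

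Coding sequences are shown for 4 SPRR2 genes because their likeness bears on how reads could be assigned. They were read from GENCODE 29 (GRCh38, chromosome 1, minus strand), start codon to stop codon, and capitals mark bases that differ from SPRR2A.
SPRR2A: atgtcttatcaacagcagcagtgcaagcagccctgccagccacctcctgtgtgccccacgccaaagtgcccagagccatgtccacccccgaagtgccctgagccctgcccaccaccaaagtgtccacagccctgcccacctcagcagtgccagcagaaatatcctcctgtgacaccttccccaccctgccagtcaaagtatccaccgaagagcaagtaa
SPRR2B: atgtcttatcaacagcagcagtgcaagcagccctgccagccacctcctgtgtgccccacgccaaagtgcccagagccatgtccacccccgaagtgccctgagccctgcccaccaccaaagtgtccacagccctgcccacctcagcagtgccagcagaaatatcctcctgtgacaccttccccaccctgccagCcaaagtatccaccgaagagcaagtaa
SPRR2D: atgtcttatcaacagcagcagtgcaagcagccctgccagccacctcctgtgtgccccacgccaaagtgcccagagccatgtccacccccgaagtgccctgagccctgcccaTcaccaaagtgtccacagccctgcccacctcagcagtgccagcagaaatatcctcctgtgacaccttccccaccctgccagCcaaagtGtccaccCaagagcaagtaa
SPRR2E: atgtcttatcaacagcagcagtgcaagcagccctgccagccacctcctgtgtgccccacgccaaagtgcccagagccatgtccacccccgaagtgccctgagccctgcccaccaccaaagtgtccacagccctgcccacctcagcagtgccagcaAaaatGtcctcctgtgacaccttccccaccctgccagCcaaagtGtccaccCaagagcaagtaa
All 4 sequences are 219 bases long. SPRR2B differed from SPRR2A at 1 base, SPRR2D at 4 and SPRR2E at 5. Codons for proline made up 37.5% of the SPRR2A codons, 29.2% of those of SPRR1B and 22.5% of those of SPRR3. SPRR1A and SPRR1B were 96.3% identical, SPRR2G was 85.6% identical to SPRR2A, and SPRR3, at 510 bases, was 34.9% identical to SPRR2A.

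**Figure D1:**
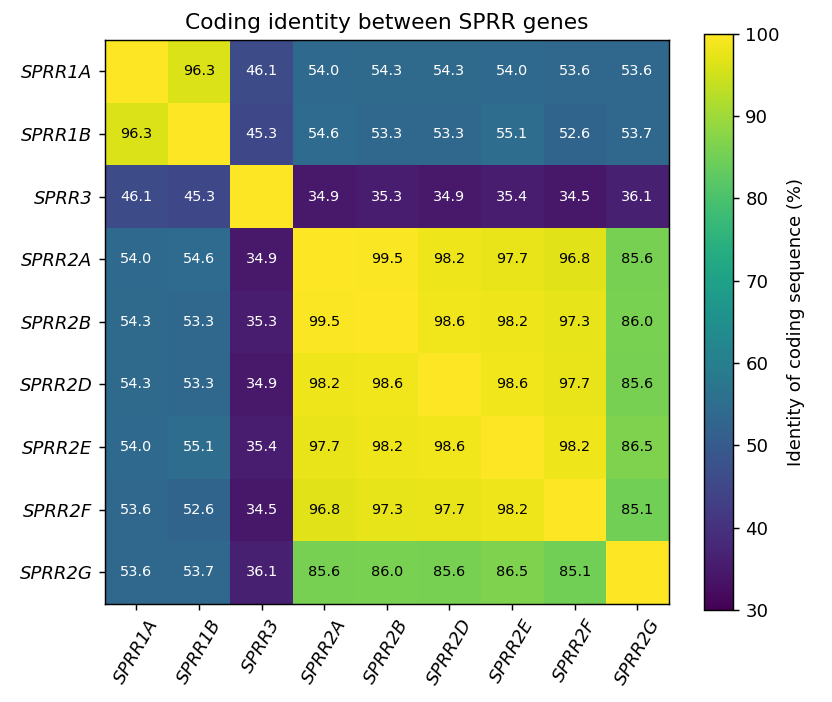
Percent identity of coding sequences between each 2 of the 9 SPRR genes, from global alignments in which gaps count as differences. SPRR2A, SPRR2B, SPRR2D, SPRR2E and SPRR2F form a block at 96.8% or more, and SPRR1A and SPRR1B stand at 96.3%.

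Over the whole annotated transcript, 32.7% of the 50-base windows of SPRR2A also occurred in a transcript of another gene, 32.0% of those of SPRR2B, 26.8% of those of SPRR2D and 23.0% of those of SPRR2E. At 100 bases the shares were 20.3%, 18.1%, 4.56% and 12.1%. SPRR2F and SPRR2G stood at 18.2% and 8.29% with 50 bases and at 0% with 100. For SPRR1B the shares were 4.38% and 0%, and for SPRR1A, on an entry of 270 bases, 11.3% and 0%. The windows of these 2 genes were shared with each other, and SPRR3 shared no window of either length. Neither read length nor the treatment of multiply aligned reads is stated in the sources available. The split of counts among SPRR2 genes, and between SPRR1A and SPRR1B, is therefore uncertain. Gene positions below are those of GENCODE 29, in which no other gene overlapped any of the 9. Its SPRR1A entry spans the coding part only, so RefSeq places the SPRR1A start further upstream. The deposited counts and FPKM imply 662 bp for SPRR1A, longer than its 270 bases here, so the counts used another gene model. The window shares and overlaps given are those of GENCODE 29 and may differ for the gene models that were counted.

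The SPRR2 genes, SPRR2B aside, changed from near 0 to low or moderate levels. SPRR2A (ENSG00000241794, chromosome 1, 153056113 to 153057537, minus strand), a psoriasis-associated family member, had 0 counts in both PBS libraries and 193 and 224 counts in the M5 libraries. In FPKM this was 15 and 16.8, or 15.9 ± 1.23 (SD, n = 2). The groups did not overlap. Against a floor of 3 counts over both PBS libraries, SPRR2A was at least 127-fold higher in M5 (edgeR adjusted p = 1.89e-11). It reached the mean FPKM of 1 only through M5, as did SPRR2D and SPRR2E below. In a fit of all 27356 genes without a filter its edgeR adjusted p was 2.6e-07. There, leaving out M5 replicate 1 or 2 lost the call of SPRR2A. As these are bulk samples, more expressing cells and more RNA per cell cannot be told apart here or in the results that follow.

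SPRR2D (ENSG00000163216, chromosome 1, 153039725 to 153041931, minus strand) had 0 and 1 counts in PBS and 66 and 93 in M5, or 3.30 and 4.48 FPKM. Its M5 libraries were far above both PBS libraries. The ratio was 145 (exact 95% interval 25.7 to 5780, counting error only), and the fitted log2 fold change was 6.87 (SE 0.62, edgeR adjusted p = 1.88e-08). It was 6.03 without PBS replicate 1 and 9.27 without PBS replicate 2. The latter is against 0 counts, where the fit's prior count sets the value.

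SPRR2E (ENSG00000203785, chromosome 1, 153093135 to 153106184, minus strand) had 1 and 3 counts in PBS and 71 and 77 in M5, or 5.09 and 5.30 FPKM. The M5 libraries lay close together and apart from PBS. The log2 fold change was 5.00 (SE 0.48, edgeR adjusted p = 4.65e-08), with 4.45 without PBS replicate 1 and 5.92 without PBS replicate 2. The ratio of summed counts was 33.8 (exact 95% interval 12.9 to 126).

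SPRR2F and SPRR2G were lower still and did not reach the mean FPKM of 1, so their tests come from a fit of all 27356 genes without a filter, in which 12.4% of genes were called higher. SPRR2F (ENSG00000244094, chromosome 1, 153112114 to 153113515, minus strand) had 0 and 2 counts in PBS and 21 and 13 in M5, a ratio of 15.5 (exact 95% interval 3.99 to 134, edgeR adjusted p = 0.009). Its fitted log2 fold change of 3.84 was 2.93 without PBS replicate 1 and, against 0 counts, 7.07 without PBS replicate 2. SPRR2G (ENSG00000159516, chromosome 1, 153149582 to 153150869, minus strand), the SPRR2 gene least like SPRR2A in coding sequence, had 0 counts in both PBS libraries and 11 and 18 in M5, at least 8.84-fold higher (edgeR adjusted p = 0.00347). For both genes every M5 library was above every PBS library. In that unfiltered fit, leaving out M5 replicate 1 or 2 lost the calls of both.

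SPRR2B (ENSG00000196805, chromosome 1, 153070224 to 153070840, minus strand) had 0 counts in 3 libraries and 1 count in M5 replicate 2. Both groups are under the floor of 3 counts, so no fold is given, and a change was not detectable at this depth. Its coding sequence, shown above, is the closest to that of SPRR2A.

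**Figure D2:**
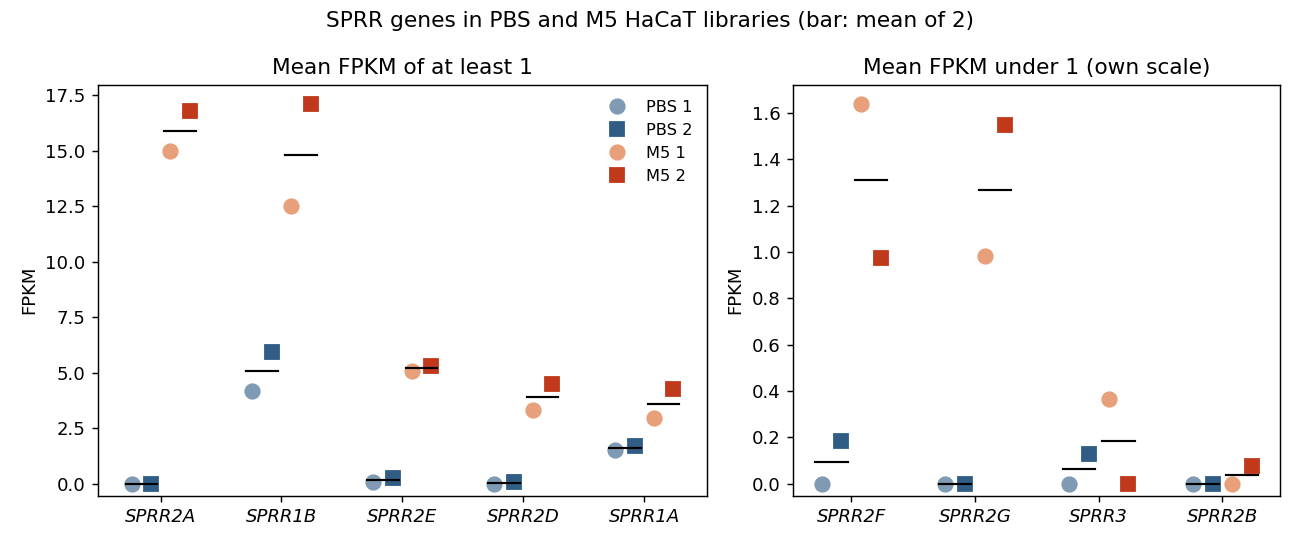
FPKM of each SPRR gene in the 2 PBS libraries (blue) and the 2 M5 libraries (orange and red), with a bar at each group's mean; the right panel has its own scale. SPRR2A is at 0 in PBS and at 15 and 16.8 in M5, SPRR1B is present in both groups, and SPRR3 and SPRR2B stay under 0.4.

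The 2 SPRR1 genes were already expressed in PBS and rose less. SPRR1B (ENSG00000169469, chromosome 1, 153031202 to 153032900, plus strand), also called cornifin, had 41 and 59 counts in PBS and 147 and 209 in M5. Its levels were 4.18 and 5.94 FPKM in PBS and 12.5 and 17.1 in M5, without overlap. The rise was 3.24-fold, or 1.70 on the log2 scale with SE 0.23 (edgeR adjusted p = 5.38e-06). Among the 10514 tested genes whose PBS mean reached 1 FPKM, 1.31% had a larger log2 fold change. For SPRR1A below, that share was 2.58%.

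SPRR1A (ENSG00000169474, chromosome 1, 152985231 to 152985500, plus strand) had 16 and 18 counts in PBS and 37 and 56 in M5. In FPKM this was 1.52 and 1.69 in PBS and 2.94 and 4.28 in M5, again without overlap. The rise was 2.49-fold, or 1.31 on the log2 scale with SE 0.36 (edgeR adjusted p = 0.00411). Without M5 replicate 2 the value was 1.02 and did not pass (edgeR adjusted p = 0.0527). SPRR1B had more counts than SPRR1A in each library, by ratios of 2.56 and 3.28 in PBS and 3.97 and 3.73 in M5. The rises of the 2 genes were not tested against each other.

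SPRR3 (ENSG00000163209, chromosome 1, 153001747 to 153003856, plus strand), a family member best known from oesophagus and other moist epithelia, showed no group pattern. It had 0 and 3 counts in PBS and 10 and 0 in M5. The groups overlapped, and the ratio of 3.05 had an exact 95% interval of 0.785 to 17.2 (edgeR adjusted p = 0.594 without a filter).

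Of the 9 genes, 5 passed the level filter and all 5 were called higher, beside 28.8% of all tested genes. SPRR2A, SPRR2D and SPRR2E passed the filter only through their M5 values, so their count carries no weight of its own. SPRR1A and SPRR1B passed it in PBS too. Without a filter 7 of 9 were called higher and 0 lower, beside 12.4% of all genes higher and 9.99% lower. That count was 2, SPRR2D and SPRR2E, without M5 replicate 1 and again without M5 replicate 2, where called genes of either direction went from 22.4% of all genes to 6.80% and 7.34%. Both M5 libraries exceeded both PBS libraries for 7 members, against 23.6% of all genes with a row. When the 6 SPRR2 genes were summed to 1 feature before the fit, it had 1 and 6 PBS counts and 362 and 426 M5 counts. Its log2 fold change was 6.64 with SE 0.31 (edgeR adjusted p = 1.37e-12). This value does not depend on how counts were split among these 6 genes. The sum was entered without the level filter. Its FPKM in PBS summed to 0.0858 and 0.498. Like SPRR2A, SPRR2D and SPRR2E it was above the level only through M5, so its call carries no weight of its own.

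The make-up of the family changed with its level. The 9 genes together had 58 and 86 counts in PBS and 556 and 691 in M5, or 3.66 and 5.36 CPM (counts scaled to the library total) against 29.3 and 35.0 CPM. SPRR2 genes gave 1.72% (exact 95% interval 0.0436 to 9.24) and 6.98% (2.60 to 14.6) of the family's counts in PBS. In M5 they gave 65.1% (61.0 to 69.1) and 61.6% (57.9 to 65.3). The intervals cover counting error only, and 2 libraries against 2 cannot give an exact permutation p below 0.333. SPRR1B fell from 70.7% and 68.6% of the family's counts to 26.4% and 30.2% while its own level rose. Within the SPRR2 counts of M5, SPRR2A took 53.3% and 52.6%, SPRR2E 19.6% and 18.1%, and SPRR2D 18.2% and 21.8%.

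**Figure D3:**
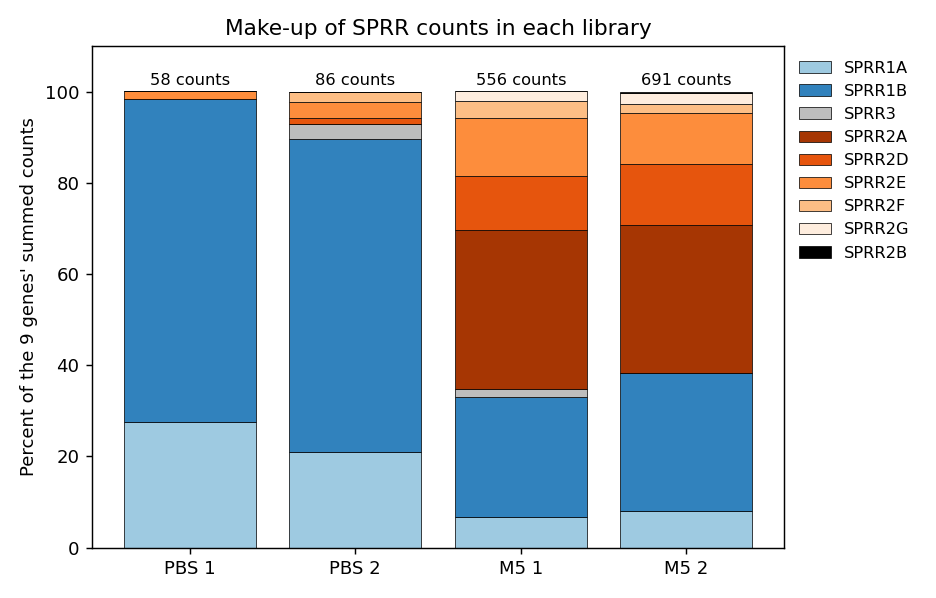
Share of each SPRR gene in the summed counts of the 9 genes, as stacked percentages for the 4 libraries, with the summed count above each bar. SPRR1 genes (blue) fill most of the PBS bars, and SPRR2 genes (orange to brown) make up 65.1% and 61.6% of the M5 bars.

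Per gene length, the order of FPKM levels in M5 was SPRR2A and SPRR1B, then SPRR2E, SPRR2D, SPRR1A, SPRR2F and SPRR2G, with SPRR3 and SPRR2B last. SPRR2A and SPRR1B did not differ beyond their spread, as the 2 values of SPRR2A lay between those of SPRR1B. The FPKM ranges of SPRR2D and SPRR1A overlapped, as did those of SPRR2F and SPRR2G, while both values of SPRR2E were above both of SPRR2D. In PBS the order was SPRR1B, SPRR1A and then the rest, each under 0.3 FPKM. The gene lengths behind these values, such as 1052 bp for SPRR2D and 677 bp for SPRR2A, are those implied by the deposited counts and FPKM.

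The level of SPRR1B, the member with the highest mean FPKM, had its closest match over the 4 libraries in CAPNS2, a calpain small subunit, at a Euclidean distance of 0.437 on log2(FPKM + 1). CLDN12, BNIP3, PNRC1 and NUAK2 followed at 0.443 to 0.490. These distances describe 4 libraries in 2 groups that all genes share.

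The 9 SPRR genes lie within 166 kb, with called and uncalled genes interleaved along the chromosome. From SPRR5 onwards the order is SPRR5, SPRR4, SPRR1A, SPRR3 and SPRR1B on the plus strand, then SPRR2D, SPRR2A, SPRR2B, SPRR2E, SPRR2F, SPRR2C and SPRR2G on the minus strand. SPRR3 lies between SPRR1A and SPRR1B, and SPRR2B between SPRR2A and SPRR2E, all 4 of which were called higher. The 3 further family genes, named after their values were seen, were not called in the unfiltered fit. SPRR4 had 12 and 6 PBS counts and 8 and 12 M5 counts, which overlapped. SPRR5 had 3 counts in 1 PBS library only, and the pseudogene SPRR2C 1 count in 1 M5 library.

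**Figure D4:**
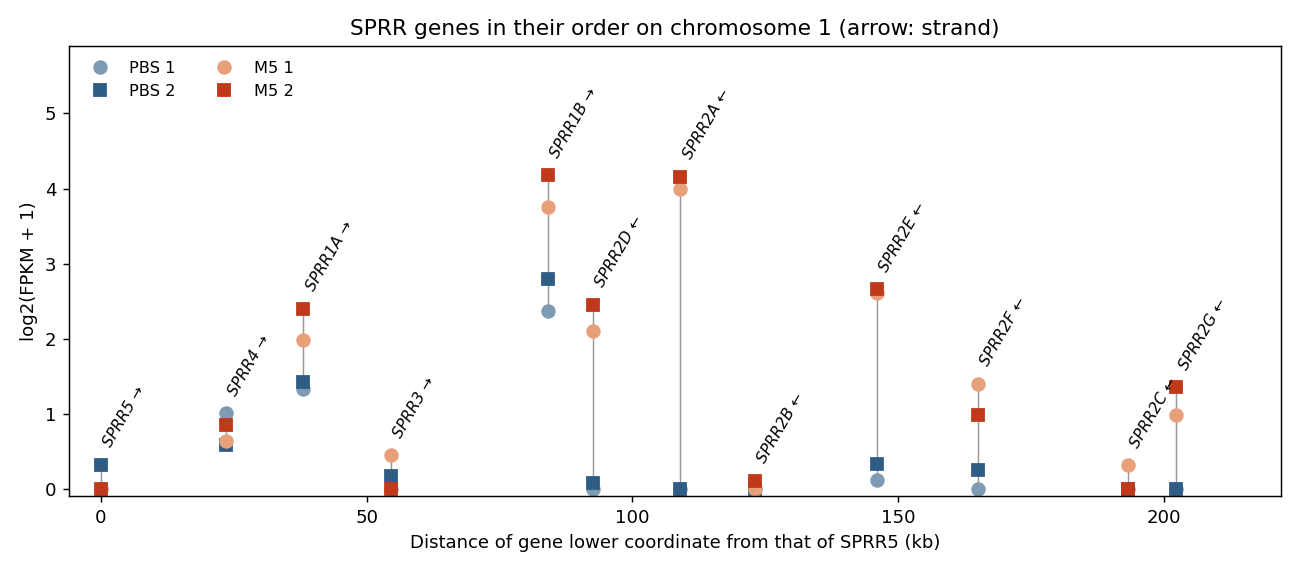
Level of 12 SPRR genes as log2(FPKM + 1) in each library, placed by distance in kb along chromosome 1 from SPRR5, with strand shown by an arrow. SPRR1A, SPRR1B, SPRR2D, SPRR2A, SPRR2E, SPRR2F and SPRR2G have both M5 libraries (orange and red) above both PBS libraries (blue), and SPRR5, SPRR4, SPRR3, SPRR2B and SPRR2C do not.

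Promoter sequences are shown for 4 genes, to set a called gene beside the near-silent SPRR2B and the SPRR1 genes. They come from RefSeq on GRCh38.p14, written 5′ to 3′ on the gene's strand, up to 250 bases before the start and cut where GENCODE 29 places an exon. Capitals mark matches on either strand to the AP-1, octamer and TATA box motifs spelled out after the sequences.
SPRR2A, chr1:153057538-153057762, minus strand: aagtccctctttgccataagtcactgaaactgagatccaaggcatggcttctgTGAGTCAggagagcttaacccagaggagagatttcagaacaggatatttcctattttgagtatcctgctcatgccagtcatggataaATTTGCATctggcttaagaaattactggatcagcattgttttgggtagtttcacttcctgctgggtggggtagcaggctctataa
SPRR2B, chr1:153071612-153071861, minus strand: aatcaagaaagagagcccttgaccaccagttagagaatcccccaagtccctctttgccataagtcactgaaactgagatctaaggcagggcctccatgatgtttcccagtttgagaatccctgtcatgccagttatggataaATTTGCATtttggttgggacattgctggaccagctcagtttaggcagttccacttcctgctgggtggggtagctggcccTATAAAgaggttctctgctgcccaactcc
SPRR1B, chr1:153030953-153031201, plus strand: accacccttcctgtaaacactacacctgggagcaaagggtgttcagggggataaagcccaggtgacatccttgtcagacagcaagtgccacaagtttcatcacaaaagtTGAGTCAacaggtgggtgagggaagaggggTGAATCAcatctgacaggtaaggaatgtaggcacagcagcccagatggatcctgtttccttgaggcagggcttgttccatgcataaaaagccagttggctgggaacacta
SPRR1A, chr1:152983831-152984080, plus strand: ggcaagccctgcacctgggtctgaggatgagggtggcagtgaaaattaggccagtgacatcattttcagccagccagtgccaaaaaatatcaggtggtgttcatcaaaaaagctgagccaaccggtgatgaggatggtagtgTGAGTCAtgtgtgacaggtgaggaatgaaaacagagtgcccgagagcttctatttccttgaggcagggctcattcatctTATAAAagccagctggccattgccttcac
RefSeq promoters were matched for 7 of the 9 genes, all but SPRR2D and SPRR2E. Within the full 250 bases before the start, the AP-1 motif TGANTCA was found in 6 of the 7, the exception being SPRR2B, against 6.57% of 35116 promoters of that length. It began 197 bases before the start in SPRR2A, 141 and 111 bases in SPRR1B and 108 bases in SPRR1A. SPRR3, which was not called either, held the motif too, beginning 170 bases before its start. The octamer ATGCAAAT was found in SPRR2A, SPRR2B and SPRR2F, against 1.63% of promoters, and began 110 bases before the start in SPRR2A and 108 bases in SPRR2B.

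CAGGAA, an ETS core, was found in SPRR1B, SPRR2A and SPRR2B, against 24.1% of promoters. TATAAA was found in 6 of the 7, all but SPRR1B, against 10.7% of promoters; in SPRR2A it falls partly in the exon that GENCODE 29 gives and is therefore not capitalised. An interferon response motif, GAAA repeated after any 2 bases, was found in none of the 7, against 3.02% of promoters. Only exact matches were counted, so an element that departs from this pattern would be missed. In the SPRR2A promoter shown above, the stretch tttcacttcc comes close to the pattern on the other strand. Both strands were searched, and the SPRR2 promoters share descent, so these counts are not independent. A match is a run of letters and was not tested for binding or for an effect on the counts.

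Genes whose proteins build the envelope with SPRR proteins moved in both directions, as did all tested genes, with 28.8% called higher and 27.1% lower. Of 18 late cornified envelope genes, small precursors encoded beside the SPRR cluster, 11 had a row and 2 were tested, and both rose. LCE3D went from 3 and 0 counts to 145 and 161, a ratio of 93.3 (exact 95% interval 31.6 to 455), and its log2 fold change of 6.43 was 10.22 without PBS replicate 1, against 0 counts, and 5.48 without PBS replicate 2. LCE3E went from 4 and 2 counts to 93 and 84, or 4.70 higher on the log2 scale with SE 0.42 (edgeR adjusted p = 1.97e-08). Both genes passed the level filter only through M5.

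Of 15 other envelope genes of 1q21, 12 had a row and 4 were tested. Of these 4, 1 rose and 3 fell, beside 28.8% and 27.1% of all tested genes. The 1 that rose, PRR9, passed the level filter only through M5, and of the 3 that fell, TCHH, named after its values were seen, did not pass without PBS replicate 2 (-0.47, edgeR adjusted p = 0.0732). PRR9, a proline-rich gene that lies near the SPRR cluster, rose from 0.722 and 0.816 FPKM to 11.2 and 10.4 FPKM, 15.5-fold. FLG, which encodes filaggrin, fell from 3051 and 3413 counts to 373 and 267, a log2 fold change of -3.46 (SE 0.11). IVL, which encodes involucrin, a partner that SPRR proteins are joined to, fell from 8.88 and 8.77 FPKM to 4.80 and 5.41, 1.56-fold lower (edgeR adjusted p = 0.000627). LORICRIN, another such partner, had 0 counts in 3 libraries and 3 counts in M5 replicate 2.

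Transglutaminases had 3 of 7 genes with a row and 1 tested. TGM2, tissue transglutaminase, rose 4.34-fold, from 0.698 and 0.635 FPKM to 2.93 and 2.28, and passed the level filter only through M5. TGM1, the main keratinocyte enzyme and named after its values were seen, had 8 and 43 counts in PBS and 22 and 41 in M5, with overlapping groups. Of 8 tested envelope partners outside 1q21, 4 rose and 2 fell, beside 28.8% and 27.1% of all tested genes. With TPM scaling 3 fell. PI3, or elafin, an antiprotease that is joined to the envelope, rose from 5.61 and 6.11 FPKM to 2910 and 2950 FPKM. SERPINB2, a serpin found in the envelope, rose 13.7-fold, and SCEL, which encodes sciellin, fell 5.34-fold and passed the level filter only through PBS.

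Some S100 genes of the same band, which encode calcium-binding proteins, reached levels far above those of the SPRR genes. Of 14 tested, 11 rose and 1 fell, beside 28.8% and 27.1% of all tested genes. With library totals or TPM scaling 10 rose. Of the 14, 4 passed the level filter only through M5, S100A8 and S100A7A among them, and 7 of the other 10 rose. S100A9 reached 4530 and 5290 FPKM in M5 and S100A8 917 and 951 FPKM, while the 9 SPRR genes together summed to 41.8 and 50.5 FPKM. S100A7A, with 0 PBS counts, was at least 519-fold higher, but its 8.15 and 11.5 FPKM in M5 were under the values of SPRR2A and SPRR1B.

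Among factors that are known to act at SPRR promoters, those of the AP-1 and ETS families were mostly higher in M5. Of 7 AP-1 genes 6 were tested and all 6 rose with TMM scaling, beside 28.8% of all tested genes. Of the 6, FOS passed the level filter only through M5. JUNB rose from 40.6 and 43.9 FPKM to 96.3 and 91.6 FPKM (log2 fold change 1.30, SE 0.06, edgeR adjusted p = 2.06e-12). FOS rose by 1.19 and FOSL2 by 0.85 on the log2 scale. With library totals or TPM scaling 5 of the 6 rose: JUND, named after its values were seen, was at 0.16 and 0.13 and did not pass. It did not pass without PBS replicate 1 either (0.22, edgeR adjusted p = 0.0885), nor without M5 replicate 1 (0.16, edgeR adjusted p = 0.146).

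Of 5 tested ETS genes 3 rose, beside 28.8% of all tested genes, and 2 did not pass, with a median of 1.32. ETS1 rose by 1.78 on the log2 scale, ETS2 by 1.40 and EHF, an epithelial ETS factor, by 1.32. ELF3, an epithelial ETS factor described at the SPRR2A promoter and named here after its values were seen, was at 1.91 and 1.43 FPKM in PBS and 1.43 and 1.65 in M5 (log2 fold change 0.03, edgeR adjusted p = 0.888). Of 6 other tested factors 4 rose and 1 fell, beside 28.8% and 27.1% of all tested genes. CEBPB was at 1.30, STAT3 at 1.05 and IRF1 at 0.57, while KLF4, at 0.04, was not called. The factor that fell, SP1, at -0.28, was at -0.21 and did not pass without PBS replicate 1. POU3F1 and POU2F3 of the same list were under the level filter. POU3F1 had 16 and 12 counts in PBS and 0 and 4 in M5 (unfiltered log2 fold change -2.84, edgeR adjusted p = 0.0425). POU2F3 had 8 and 8 counts in PBS and 7 and 6 in M5. KLF4, POU3F1 and POU2F3 were named after their values were seen.

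OVOL1, a differentiation factor, fell 1.53-fold. The relation of any factor to the SPRR values was not tested.

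**Figure D5:**
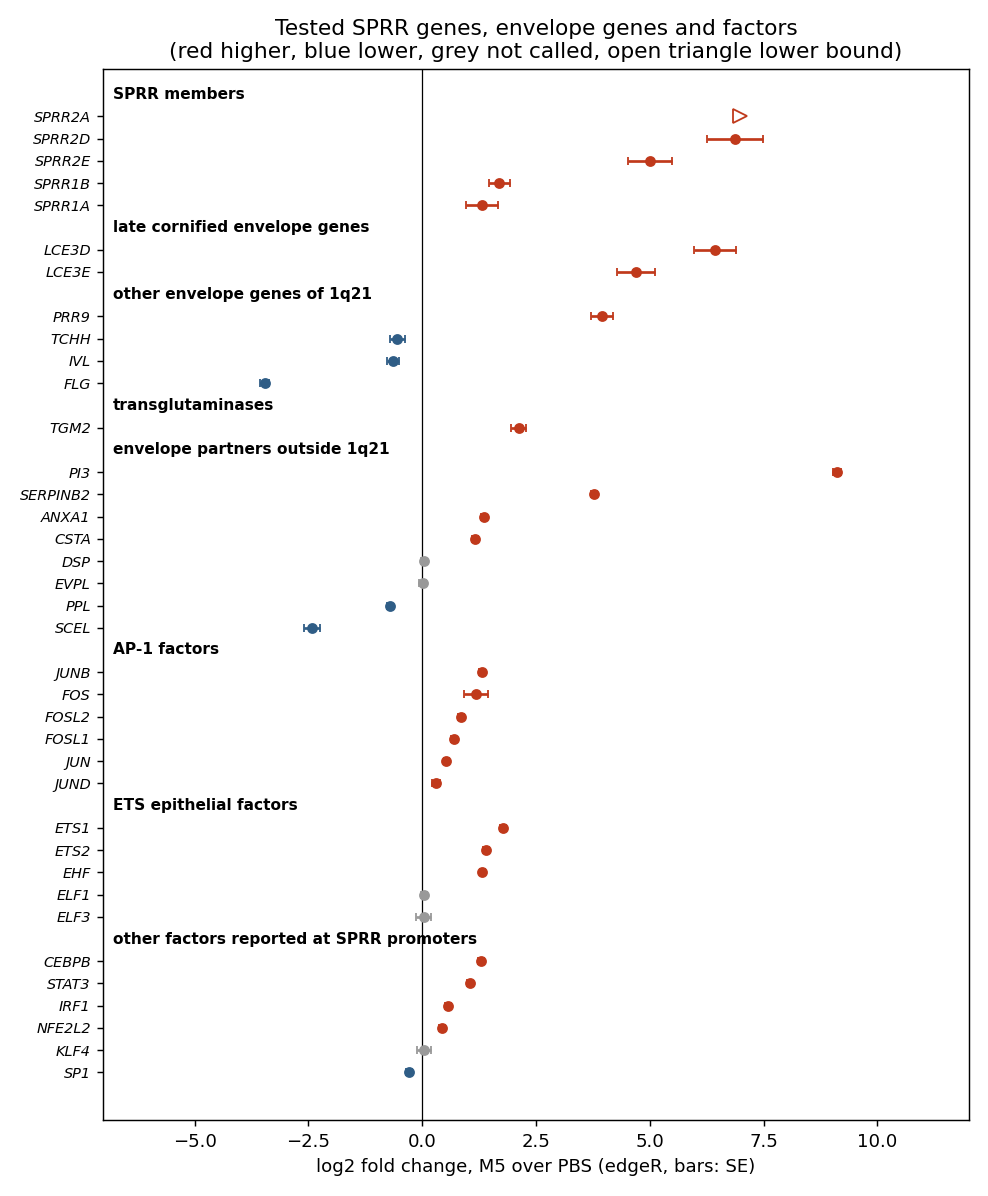
Log2 fold change of M5 over PBS with its SE for tested SPRR genes, envelope genes and factors; SPRR2A is drawn at its lower bound. SPRR2A, SPRR2D, SPRR2E, LCE3D, LCE3E and PRR9 lie to the right with FLG, IVL and SCEL to the left, and the AP-1 and ETS factors lie between 0.03 and 1.78.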

How the data were processed

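RNA was sequenced from 2 PBS and 2 M5 HaCaT libraries, 1.5 µg of RNA each. The deposited files give, per the file headers, a raw read count and an FPKM value per gene. Per the submitters' processing notes, GRCh38, HTSeq 0.13.5 and HISAT2 were used, in roles not stated. Strand setting and annotation release: not given in the sources used. The authors' FPKM equal count over a whole-number gene length and the file's total, to within 4.66e-10 bp. The kit named in the labels does not mark strand.

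Counts were tested with edgeR 4.0.16 in R 4.3.3 (glmQLFit and glmQLFTest, TMM, two-sided, Benjamini-Hochberg) on genes with mean FPKM 1 or more, called at an adjusted p under 0.05; SE is the log2 fold change over the square root of F. Ratio and share intervals are exact Clopper-Pearson, and folds against 0 counts use a floor of 3 counts over both libraries. Coding identity used Biopython 1.88. Within each group the 2 libraries differed beyond counting noise (median chi-square 1.00 in PBS and 1.75 in M5, against 0.455). Alternatives were DESeq2 1.42.0, limma 3.58.1 on log2(FPKM + 1) and log2(FPKM + 0.1), other scalings and filters, a robust fit, a replicate block, summed SPRR2 rows, an adjusted p of 0.01 and each library left out. The edgeR step was tested on simulated data. Named genes were all members, the 3 called genes with the largest absolute log2 fold change of each list, the most abundant gene of each marker list, and the 5 nearest profiles to SPRR1B; 1 gene that the rule names is not reported here. The members and lists were chosen with earlier results of these data known.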

Additional observations from a re-analysis of the deposited data

How the results depend on the processing

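Of 69 recomputed log2 fold changes of the 5 tested SPRR genes, 68 kept their direction and side of the threshold, and the exception was SPRR1A without M5 replicate 2. A mean FPKM of at least 5 left 2 SPRR genes, both called, and summing the SPRR2 genes left 3 features, all called, because fewer features were tested. With a library left out, the lone library of its group is assumed to vary like the other group. Leaving out each library gave 4 to 5 called members. In the fit without a filter, leaving out each library (chosen after seeing the data) gave 2 to 7 called members: 7 without either PBS library, and 2, SPRR2D and SPRR2E, without M5 replicate 1 or 2, where the called share of all genes also dropped from 22.4% to 6.80% and 7.34%. In those fits SPRR3, not called in any, ranged from -3.74 without M5 replicate 1 to 5.35 without PBS replicate 2. Both are against 0 counts and so depend on the prior count. The number of called genes, 6043, ranged from 4204 to 6766 over its alternatives.

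The replicate block gave 6091 called genes and 5 called members, with a log2 fold change of 1.30 for SPRR1A and 1.70 for SPRR1B. The numbers are not a pairing by the labels, and deviations of same-numbered libraries had a correlation of -0.01. Depth limits SPRR2B, SPRR2F, SPRR2G and SPRR3, which had at most 21 counts in any library.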
